A study of Mus musculus with 24 samples.

Results

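The response of the aortic endothelium to a high-fat diet (HFD) was compared between mice that lack galectin-3 (KO) and wild-type controls (WT) on 12 of the 24 arrays of the series, namely those with aorta in their title. WT mice were C57BL/6, and the KO mice were Galectin-3(-/-), homozygous for the targeted allele Lgals3tm1Poi on the same background. The mice were male and received HFD (60% of calories from fat) or standard chow (12%) for 8 weeks, beginning at 8 weeks of age. The deletion was present in every cell of the animal, so that no group separates a loss of galectin-3 in the endothelium from a loss elsewhere. Each array carried amplified RNA of about 10000 sorted CD105+/CD45- cells. These had been pooled from 3 mice according to the methods, and from 3 to 4 according to the series description. There were 3 arrays each of WT chow, WT HFD, KO chow and KO HFD, 1 from each of 3 independent experiments, called trials below. The HFD array and the chow array of a strain and trial formed a pair, which gave 3 KO pairs and 3 WT pairs. In each pair the HFD array was compared with the chow array as a log2 ratio for every probe, after each array had been divided by the 75th percentile of its own signals. The quantity described below is the response difference, the mean of the 3 KO ratios minus the mean of the 3 WT ratios on the log2 scale. A positive value denotes a transcript whose ratio of HFD to chow was higher in KO. By its arithmetic, the same number is the gap between KO and WT on HFD minus the gap between KO and WT on chow.

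Galectin-3 is a lectin that binds galactose-containing glycans on cell surfaces and matrix glycoproteins, and it is also a receptor for advanced glycation end products. The endothelium that lines the aorta controls vessel tone, clotting and the entry of leukocytes, and it passes glucose and fatty acids to the vessel wall. Feeding a high-fat diet to C57BL/6 mice is a common model of obesity with insulin resistance.

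The arrays were of like quality, with 61.6% to 69.3% of the non-control spots well above background and 0 saturated spots on every array. The strain labels were checked at probes chosen on the muscle arrays of trials 2 and 3 by their limma p, after 0 probes had passed the adjusted threshold there. Of 48 such probes, 25 were read. In these the KO and WT chow means in the aorta also differed by over 1 log2, in the direction seen in muscle. The aortic chow arrays thus helped to choose the probes, and only the aortic HFD arrays were checked. On a scale set by the chow arrays, from 0 at the WT level to 1 at the KO level, the WT HFD arrays lay at 0.232, 0.068 and 0.185 in trials 1, 2 and 3. The KO HFD arrays lay at 0.425, 0.824 and 1.012, so that the KO HFD array of trial 1 lay between the strains. The probe of the deleted gene, Lgals3, read higher on the KO array than on the WT array in 5 of 6 comparisons within a diet and trial. Whether this probe lies inside the deleted part of the gene was not analysed here, so it does not check the labels, and WT and KO are given as labelled. The 6 endothelial genes Pecam1, Cdh5, Kdr, Tek, Tie1 and Eng, which encodes CD105, were well above background on all 12 arrays. The KO chow array of trial 1 also stood apart in its marker transcripts, as given below. For these reasons class medians and some genes are also given without trial 1 or without the KO pair of trial 1. In addition, each trial and each pair was left out in turn, in 9 settings. Of 93 named genes, 71 moved by over 1.5 times in at least 1 of them, and the lowest and highest of the 9 values are given below as a leave-out range for genes not shown by pair.

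Over all 25865 probes tested, 0 (0%) passed an adjusted p of 0.05 for the response difference in limma, and the lowest adjusted p was 0.857. Before adjustment, 338 probes had a limma p under 0.05 with a higher ratio in KO and 339 with a lower ratio, together 2.62% of the probes. These counts depended on the WT pair of trial 2, without which they rose to 784 and 545. With all pairs kept and each of 14011 genes read on its brightest probe, 129 genes (0.921%) had a higher and 115 (0.821%) a lower ratio in KO. The median 95% interval reached 1.15 to either side of a gene's value on the log2 scale, whereas the median size of the response difference was 0.25. A difference of the usual size was therefore not detectable with 3 pairs a strain.

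The trials differed from each other in what they showed. The SD over genes of the difference between the KO and the WT ratio was 1.16 in trial 1, 1.13 in trial 2 and 1.05 in trial 3. Across genes, which are not independent replicates, the differences had a Pearson correlation of −0.16 between trials 1 and 2, 0.23 between trials 1 and 3 and −0.09 between trials 2 and 3. The difference had the same sign in all 3 trials for 1547 genes on the higher side and 1454 on the lower side of 13864 genes with a value in each pair. It was past 1 in all 3 trials for 97 genes upward and 72 downward. All 3 KO ratios lay above all 3 WT ratios for 263 genes (1.9%), and below them for 283 (2.04%). These shares are the background for every count of non-overlapping genes below. With 3 pairs against 3, a share of 0.1 of all orderings separates the strains fully, in 1 direction or the other. The shares seen were below that, so non-overlap by itself is not evidence for a gene.

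The 10 genes with the largest response difference in each direction, among genes well above background on all 12 arrays whose KO and WT ratios did not overlap, are shown by pair, except for 1, in the plot of leading genes. They were chosen for this contrast, so their values describe them and do not test them. The largest difference belonged to Filip1, which encodes a filamin A interacting protein that restrains cell migration. The 3 WT pairs gave log2 ratios of 1.35, 2.00 and 0.49, and the 3 KO pairs −2.33, −3.14 and −2.14. Filip1 was thus higher on HFD in every WT pair and lower in every KO pair. The response difference was −3.82 (95% interval −5.07 to −2.57, adjusted p = 0.857 in limma). On the single arrays, relative to the 75th percentile, the log2 level of Filip1 was −3.00, −5.79 and −3.03 in WT chow and −1.65, −3.79 and −2.54 in WT HFD. In KO it was −0.94, −2.04 and −1.72 on chow and −3.27, −5.18 and −3.87 on HFD. The KO chow arrays were the highest of their trial in each case.
Sdsl, a serine dehydratase-like enzyme, had ratios of 1.37, 0.98 and 2.33 in WT and −2.48, −0.97 and −0.86 in KO. Its KO chow arrays lay at −1.39 ± 0.55 (SD, n = 3), and its WT chow arrays at −4.01 ± 0.82. On HFD the strains lay at −2.82 ± 0.36 in KO and −2.45 ± 0.16 in WT, with the highest KO array at −2.55 and the lowest WT array at −2.54. The gap between the strains was thus smaller on HFD than on chow and of the opposite sign. Zfp599, a zinc finger protein, also had its ratios of 0.55, 0.83 and 0.37 in WT above those of −1.80, −1.14 and −1.40 in KO. The response difference was −3.00 for Sdsl and −2.03 for Zfp599. Tead4, a transcription factor of the Hippo pathway, had a difference of −2.48, which rested in good part on a WT ratio of 3.91 in trial 3 (leave-out range −3.56 to −0.97). Slx4ip had a difference of −2.27 (−3.00 to −1.48) and Prtg, protogenin, of −1.90 (−2.44 to −1.24). For Prtg 3 probes were tested, with differences between −3.79 and −0.03. Neto2 had a difference of −1.97 on its brightest probe and −0.14 on the other probe tested. Ect2, a guanine nucleotide exchange factor needed for cytokinesis, had ratios of 0.84, 2.73 and 1.42 in WT and −0.20, −0.75 and 0.33 in KO.

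**Figure D1:**
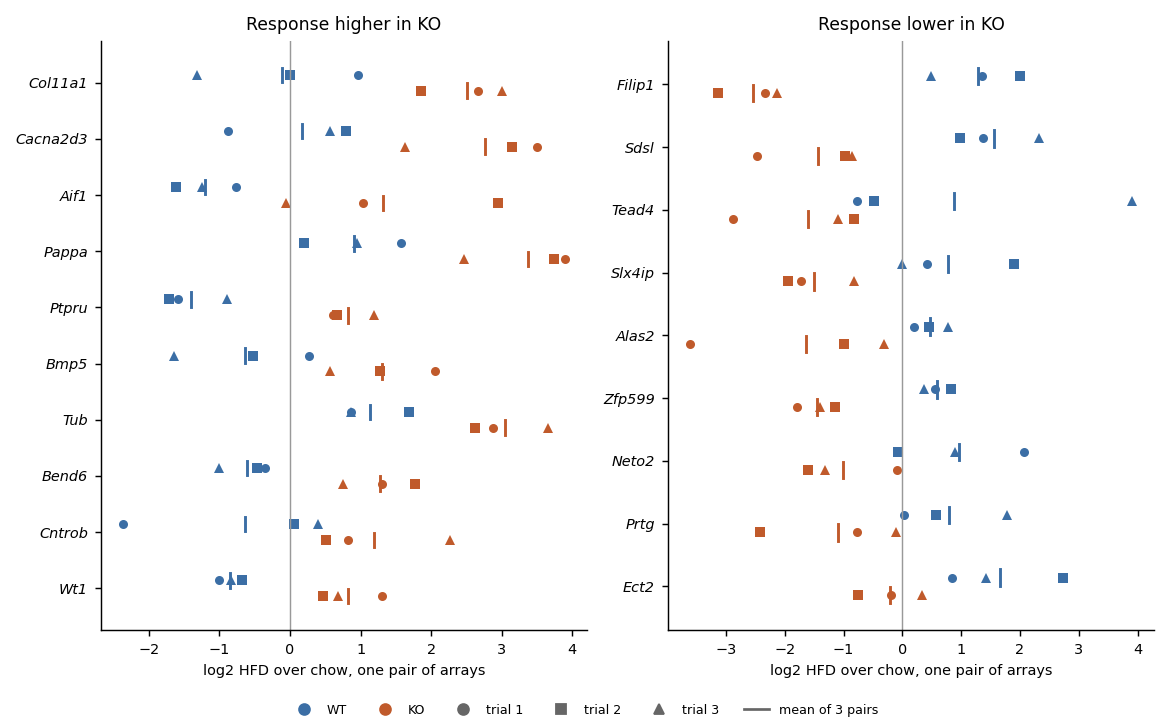
Log2 ratio of HFD to chow in each pair of aortic arrays for the leading genes, 10 with a higher and 9 with a lower ratio in KO (blue WT, orange KO; circle, square and triangle are trials 1, 2 and 3; short bars are means of 3 pairs). Filip1 lies at 0.49 or above in WT and at −2.14 or below in KO.

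Alas2, the first enzyme of haem synthesis in red cell precursors, stood among the leading genes with a lower ratio in KO. It had ratios of 0.19, 0.46 and 0.78 in WT and −3.62, −0.99 and −0.31 in KO, and a response difference of −2.12, or −1.28 without trial 1. Of the 4 erythroid markers tested, 3 had a lower ratio in KO, with a median of −1.49, and the alpha globin gene Hba-a1 had a difference of −1.77 (leave-out range −2.30 to −1.01). The summed erythroid signal, in units of an array's 75th percentile, was 49.6, 13.2 and 5.77 on the KO chow arrays and 5.41 to 10.4 on the WT chow arrays. On HFD it was 4.79 to 7.29 in KO and 8.67 to 10.2 in WT. The part of erythroid RNA in the value of Alas2 was not tested. In a sorted pool, fewer cells of a type and less RNA per cell cannot be told apart, and this holds for every result here.

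Among the genes with a higher ratio in KO, Ptpru, a receptor tyrosine phosphatase of cell contacts, had the lowest limma p (0.00108, adjusted p = 0.915). Its WT pairs lay at −1.59, −1.71 and −0.89 and its KO pairs at 0.61, 0.66 and 1.19. The response difference was 2.22 (95% interval 1.25 to 3.18), and it was 2.20, 2.37 and 2.08 in trials 1, 2 and 3. Wt1, a transcription factor of mesothelium and of growing vessels, had ratios of −1.01, −0.68 and −0.84 in WT and 1.30, 0.47 and 0.68 in KO. Of the 4 mesothelial markers tested, 3 had a lower ratio in KO and Wt1 was the exception. Bend6 had ratios of −0.36, −0.47 and −1.0 in WT and 1.31, 1.77 and 0.75 in KO. The pairs of each strain thus moved in opposite directions for Ptpru, Wt1 and Bend6.
Pappa, a protease that frees insulin-like growth factors from a binding protein, had ratios of 1.57, 0.20 and 0.95 in WT and 3.90, 3.74 and 2.46 in KO. Its second tested probe gave a difference of 3.45 beside 2.46. Col11a1, a minor fibrillar collagen, had ratios of 0.97, −0.00 and −1.32 in WT and 2.66, 1.85 and 3.00 in KO. Cacna2d3, a calcium channel subunit, had ratios of −0.88, 0.80 and 0.57 in WT and 3.50, 3.15 and 1.63 in KO. The KO chow arrays were the low group of all 3 genes. They lay at −4.89 ± 1.03 (SD, n = 3) for Pappa, −4.79 ± 0.54 for Col11a1 and −4.72 ± 0.56 for Cacna2d3, and the WT chow arrays at −3.24 ± 0.23, −2.31 ± 0.15 and −2.32 ± 0.50. Tub had a difference of 1.92 on its brightest probe and 0.15 on its other tested probe. Bmp5, a bone morphogenetic protein, had a difference of 1.94, and Cntrob, a centriole protein, of 1.83 (leave-out range 0.97 to 2.53).
Aif1, a calcium-binding protein of macrophages, had ratios of −0.77, −1.61 and −1.25 in WT and 1.04, 2.95 and −0.05 in KO. Of the 21 macrophage markers tested, 15 had a higher ratio in KO, with a median of 0.56, and the median was −0.05, −0.37 and 1.19 in trials 1, 2 and 3. The summed macrophage signal was 15.7 to 19.6 in WT chow, 6.42 to 15.6 in WT HFD, 7.92 to 13.6 in KO chow and 6.85 to 9.33 in KO HFD. Its part in the value of Aif1 was not tested. All 20 leading genes kept their direction without trial 1 and without the KO pair of trial 1. This was fixed by the choice of genes whose ratios did not overlap, so it is no check of them.

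The strains stood farther apart on chow than on HFD. The SD over genes of the mean gap between KO and WT was 0.60 on chow and 0.40 on HFD, and 1137 genes were past 1 on chow against 446 on HFD. Within single trials the SD was 1.03, 1.01 and 0.97 on chow and 0.73, 0.64 and 0.55 on HFD, so that chow was wider in 3 of 3 trials. Without trial 1 the SD of the mean gap was 0.67 on chow and 0.44 on HFD, with 1227 and 505 genes past 1. The gap was larger on chow than on HFD for 64.8% of genes. Among the leading genes this held for 19 of 20, and the exception was Aif1, with a gap of −1.25 on chow and 1.27 on HFD. Filip1 reversed its order, with KO above WT by 2.37 on chow and below it by 1.45 on HFD. These widths were compared as values, with no test, and the gap on chow enters the response difference of every gene.

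**Figure D2:**
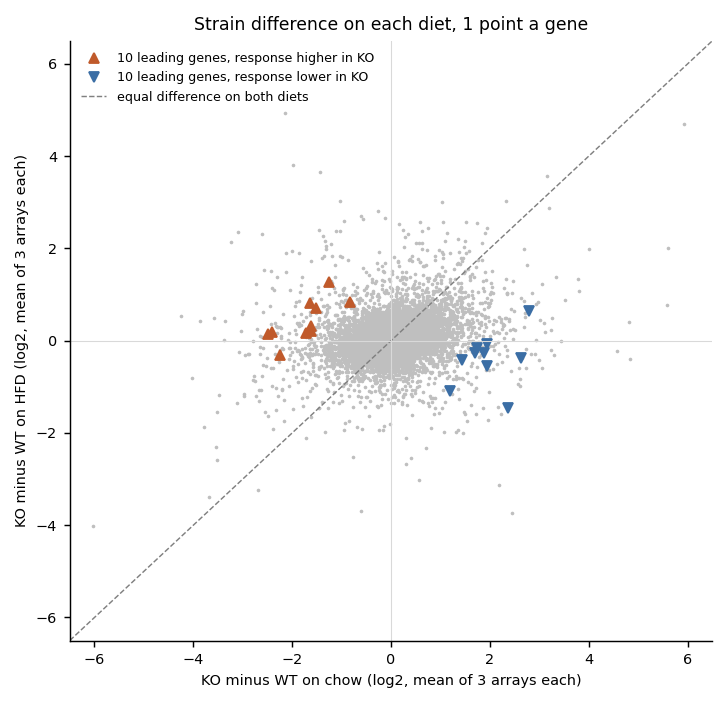
Mean log2 difference between KO and WT on chow (horizontal) and on HFD (vertical), 1 point for each gene, with the 10 leading genes in each direction as coloured triangles; the dashed line marks equal differences. The cloud is wider along the chow axis (SD 0.60) than along the HFD axis (SD 0.40), and most leading genes lie near 0 on HFD.

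The response was then read by 28 gene classes, each over its members with a tested probe. The median response difference of all genes was −0.01, and of the trials −0.12, 0.13 and −0.04. Over the 28 classes, the medians ran from −0.48 for cell cycle genes to 0.44 for clock genes, with 0.43 for elastic fibres beside it. The order at the top depended on the setting. Over probes well above background on all aortic arrays the clock median was 0.22 and that of elastic fibres 0.43, and with normexp background correction they were 0.36 and 0.45. The plot of class medians gives each trial, and in 9 of the 28 classes the median of trial 2 had the opposite sign to those of trials 1 and 3. Those 9 included endothelial identity, elastic fibres, fibrillar collagens and the respiratory chain. The median had 1 sign in all 3 trials for 6 classes, namely clock, matricellular, basement membrane and antioxidant genes above 0 and cell cycle genes and galectins below 0. Of these 6, only clock and matricellular genes also lay on 1 side of the median of all genes in each trial. Basement membrane (0.06) and antioxidant genes (0.08) lay below it in trial 2. Cell cycle genes (−0.07) and galectins (−0.11) lay above it in trial 1.

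**Figure D3:**
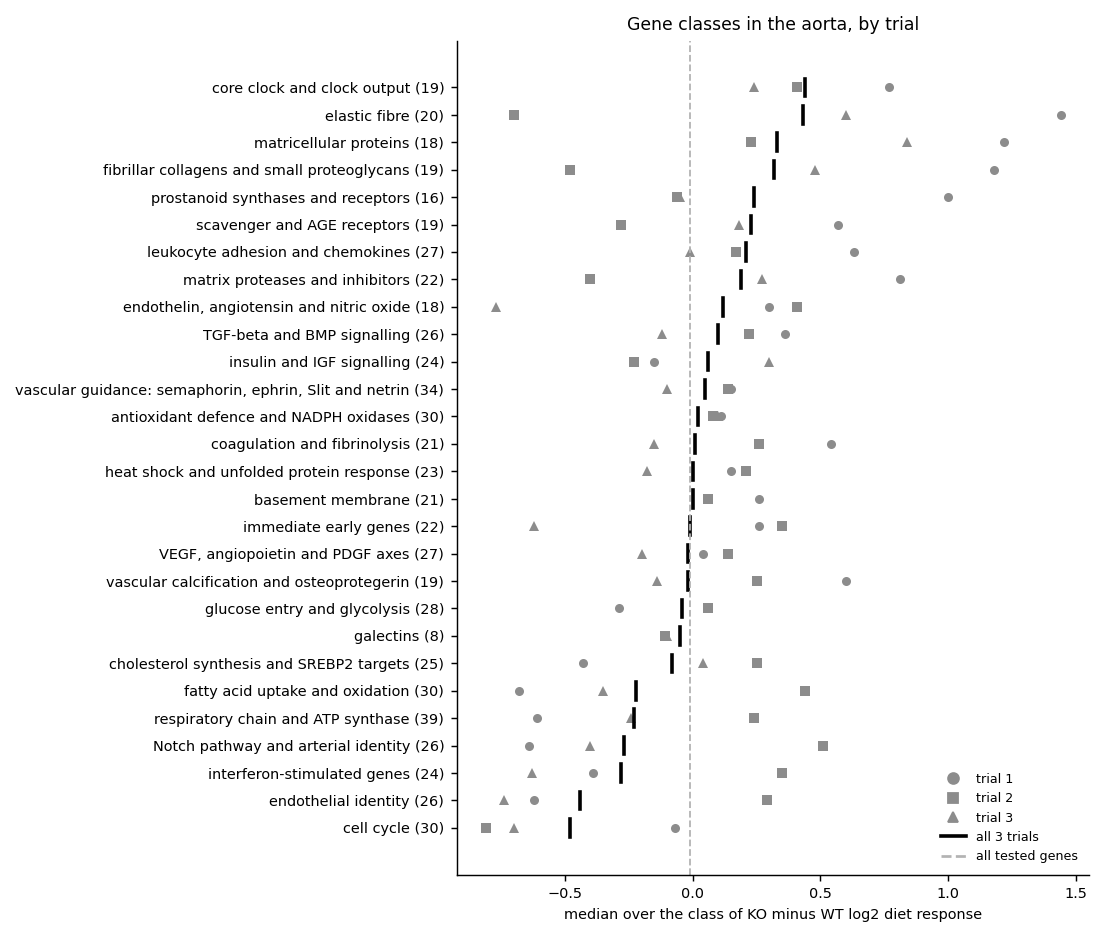
Median over the tested members of each gene class (number in brackets) of the KO minus WT log2 response to HFD; grey circle, square and triangle are trials 1, 2 and 3, black bars the median over all 3 trials, and the dashed line the median of all tested genes (−0.01). Clock genes (0.44) and elastic fibres (0.43) lie at the top and cell cycle genes (−0.48) at the bottom, but over probes well above background on all aortic arrays the clock median is 0.22.

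The circadian clock is a loop in which the activators Clock or Npas2 with Arntl bind E-box sequences, CACGTG in their consensus form, and switch on their own repressors and a set of output factors. Of 19 clock genes tested, 13 had a higher ratio in KO and 6 a lower one. The median was 0.77, 0.41 and 0.24 in trials 1, 2 and 3, 0.27 without trial 1 and 0.22 over probes well above background on all aortic arrays. For Dbp and Ciart, all KO ratios lay above all WT ratios, beside 1.9% of all genes.
Dbp, an output factor that drives many daily rhythms of metabolism, was higher on HFD in all 6 pairs. Ratios of 1.93, 1.75 and 1.68 in WT stood against 2.88, 2.88 and 2.52 in KO. The strains did not overlap, and the spread within each was small. The response difference was 0.97 (95% interval 0.16 to 1.78, limma p = 0.0253 before and 1 after adjustment, exact permutation p = 0.1, the smallest that 3 pairs against 3 allow). The levels of Dbp on the single arrays were 2.42, 1.40 and 0.66 in WT chow and 4.36, 3.15 and 2.34 in WT HFD. They were 2.58, 2.05 and 1.29 in KO chow and 5.46, 4.93 and 3.81 in KO HFD. KO was the higher strain in each trial on both diets, by more on HFD (1.45) than on chow (0.48). Dbp thus differed from most genes, whose gap was larger on chow.
Ciart, a repressor of the Clock and Arntl complex, had ratios of 1.60, −0.37 and 1.25 in WT and 2.58, 2.19 and 1.69 in KO, a difference of 1.32. Hlf, an output factor related to Dbp, had a difference of 1.28 (leave-out range 0.69 to 2.08), and the repressor Bhlhe40 one of 1.08, which was 0.27 without trial 1. Nr1d2, a repressor of Arntl, had ratios of 1.32, 0.55 and 0.88 in WT and 1.73, 1.32 and 1.03 in KO, a difference of 0.44. No size is given for Npas2, which was not well above background on any WT HFD array and on only 1 of 3 arrays of each KO group, nor for Bhlhe41, which was not well above background on any KO chow array. The class did not move as 1 block, and its lowest value was −1.22, in a gene not named here. The core repressors Per1 and Cry1 had differences of −0.54 (leave-out range −1.06 to 0.08) and −0.48 (−0.93 to 0.10), and the dimmer probe of Cry1 gave 1.51. The time of day at which the mice were killed was not given in the sources used here, and its part in these values was not tested.

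Promoter motifs are given as a description of the class. It was listed as clock genes, whose activators bind E-boxes, so the share of E-boxes does not test the diet response. The 250 bases before the start were taken from RefSeq (GRCm38.p6) for 16 of the 19 tested clock genes. An E-box, searched as CACGTG, which reads the same on both strands, stood in 6 of the 16, against 6.05% of 27025 mouse promoters. Ciart held 3, the most of the class, and is shown for that reason with the E-boxes in capitals (chr3:95882229-95882478, minus strand, 5′ to 3′). Per1 and Cry1, whose values were below 0, held 1 each, and Dbp held none in this window. The rest of each gene was not searched, so a promoter without the motif does not show a gene without an E-box. Promoters with an E-box thus belonged to clock genes on both sides of 0.
Ciart: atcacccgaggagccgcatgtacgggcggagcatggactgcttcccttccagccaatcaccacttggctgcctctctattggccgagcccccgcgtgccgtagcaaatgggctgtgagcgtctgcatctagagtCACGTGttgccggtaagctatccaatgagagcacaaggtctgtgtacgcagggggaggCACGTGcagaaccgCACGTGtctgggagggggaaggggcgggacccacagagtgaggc

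Cell cycle genes are switched on in dividing cells, and most are low in the resting endothelium of an adult vessel. Of 30 tested, 26 had a lower ratio in KO and 4 a higher one, with a median of −0.48, and −0.86 without trial 1. The median was −0.07 in trial 1, −0.81 in trial 2 and −0.70 in trial 3. In 3 genes the limma p was under 0.05 before adjustment, all with a lower ratio in KO (3 of 30 beside 0.821% of all genes), and in 0 after adjustment. The ratios of only 1 gene, Birc5, did not overlap between the strains. Birc5, survivin, a protein of mitosis that also blocks cell death, had ratios of 1.12, 1.44 and 1.45 in WT and 0.23, −1.06 and 0.15 in KO. Its response difference was −1.56 (95% interval −2.66 to −0.46, limma p = 0.0126 before and 1 after adjustment, exact permutation p = 0.1). Every WT pair was above 1, and the KO pairs lay on both sides of 0.
Tpx2, a spindle assembly factor, had ratios of 1.27, 2.25 and 2.11 in WT and 1.42, −0.35 and −0.48 in KO. The strains differed by 0.15 in trial 1 and by more than 2 in trials 2 and 3. Top2a, the topoisomerase that untangles chromosomes in dividing cells, had ratios of 1.69, 0.29 and 1.76 in WT and 1.27, −2.46 and −0.58 in KO. Its levels were −4.60, −3.26 and −3.41 in WT chow, −2.91, −2.97 and −1.64 in WT HFD, −3.68, −0.66 and −1.35 in KO chow and −2.41, −3.12 and −1.93 in KO HFD. The KO chow arrays of trials 2 and 3 were the highest of these 12 arrays. The proliferation marker Mki67 had ratios of 0.96, 1.41 and 1.02 in WT and 1.02, −1.13 and 0.64 in KO. Hmmr had a difference of −1.52 (leave-out range −2.02 to −0.61), the mitotic kinase Aurka of −1.40 (−1.81 to −0.83), and Ccne2, cyclin E2, of −1.49, below 0 in all 3 trials for each. Over the class, the median gap between KO and WT was 0.85 on chow and 0.14 on HFD. The summed signal of the class was 64.3 to 77.2 on the KO chow arrays, 52.4 to 59.5 on the WT chow arrays, 53.1 to 70.3 on the KO HFD arrays and 52.1 to 59.9 on the WT HFD arrays. The KO chow arrays thus did not overlap the WT chow arrays in this sum.

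**Figure D4:**
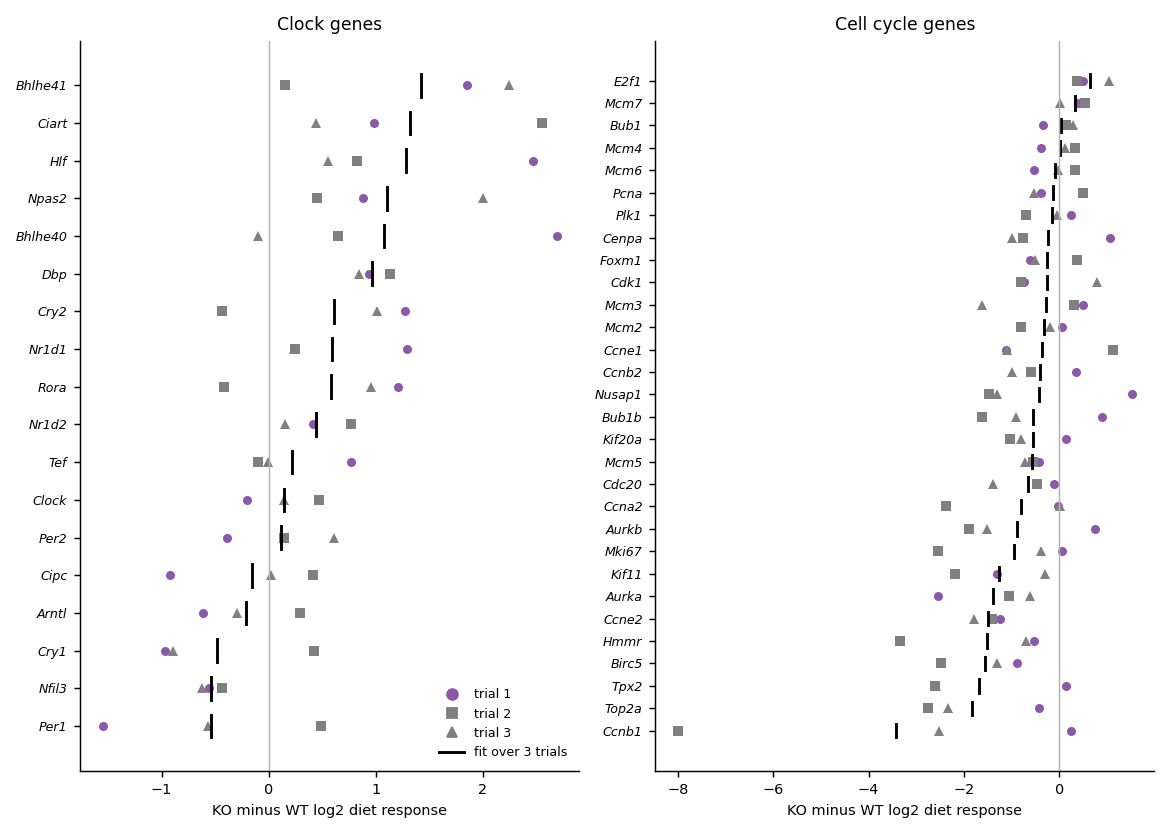
KO minus WT log2 response to HFD for 18 of the 19 tested clock genes (left) and each cell cycle gene (right); symbols are trials 1, 2 and 3, and black bars the fit over 3 trials. Dbp (0.97) has its 3 trials close together, while Top2a (−1.84) lies near 0 in trial 1 and below −2 in trials 2 and 3.

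Promoters of mitotic genes are known for CCAAT boxes and for the cell cycle homology region, TTTGAA. Of the 30 tested cell cycle genes, 23 had a RefSeq promoter. With both strands searched, CCAAT stood in 19 of the 23 (34.5% of all promoters of this length hold it) and TTTGAA in 7 of the 23 (16.3% of all). The E-box stood in 0 of the 23, and TTTGAA in 0 of the 16 clock promoters. The promoters of Top2a and Mki67 are shown because both motifs stood in them, in capitals on either strand (Top2a at chr11:99024190-99024439 and Mki67 at chr7:135716380-135716629, both on the minus strand, 5′ to 3′). No promoter of Tpx2 was found in the table, and that of Birc5 held none of the 3 motifs.
Top2a: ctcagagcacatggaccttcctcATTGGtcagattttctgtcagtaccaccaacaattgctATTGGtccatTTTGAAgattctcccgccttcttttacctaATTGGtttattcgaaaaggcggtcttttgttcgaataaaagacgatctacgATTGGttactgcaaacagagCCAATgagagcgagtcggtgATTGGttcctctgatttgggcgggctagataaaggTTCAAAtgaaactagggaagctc
Mki67: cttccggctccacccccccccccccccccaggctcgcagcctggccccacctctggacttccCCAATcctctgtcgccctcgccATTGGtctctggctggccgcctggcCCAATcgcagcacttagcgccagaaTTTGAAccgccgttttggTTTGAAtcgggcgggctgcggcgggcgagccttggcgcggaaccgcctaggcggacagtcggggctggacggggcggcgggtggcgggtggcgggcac

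The matrix classes other than basement membrane had medians above 0. Of these, only matricellular genes had a median above 0 in every trial. Elastic fibres, which give the aorta its recoil, are built from elastin, fibrillins and cross-linking enzymes. Of 20 elastic fibre genes tested, 18 had a higher ratio in KO, with a median of 0.43. The median was 1.44 in trial 1, −0.70 in trial 2 and 0.60 in trial 3, and −0.08 without trial 1. The lysyl oxidase Loxl3 and the microfibril protein Mfap2 had a difference of 0.78 each (leave-out ranges 0.09 to 2.03 and 0.32 to 1.35), with ratios for Mfap2 of 0.31, 1.68 and −0.39 in WT and 1.92, 1.39 and 0.64 in KO. Elastin, Eln, had a difference of 0.72 that was negative, at −0.05, in 1 of the settings that left out a pair or a trial. For 0 of the 20 genes did the strains not overlap.
Of 19 genes of fibrillar collagens and small proteoglycans, 15 had a higher ratio in KO, with a median of 0.32, and −0.02 without trial 1. The ratios did not overlap for Col11a1, given above, and for Bgn, biglycan. Bgn had ratios of −0.06, 0.46 and −0.03 in WT and 1.93, 0.79 and 0.49 in KO, with a difference of 0.95, or 0.52 without the KO pair of trial 1. Col6a2, a beaded filament collagen, had a difference of 1.07, with a leave-out range of 0.30 to 1.87. Fibroblast markers went the same way, with 13 of 15 at a higher ratio in KO, a median of 0.19, and trial medians of 0.82, −0.48 and 0.24. Their part in the matrix classes was not tested.
Of 18 matricellular genes, which modulate how cells meet the matrix, 14 had a higher ratio in KO. Their median was 0.33, with 1.22, 0.23 and 0.84 in the trials and 0.08 without trial 1. Spp1, osteopontin, had a difference of 4.77, the largest of the class, with ratios of 2.16, −6.20 and −2.93 in WT and 5.56, −2.37 and 4.14 in KO. Its 95% interval of −1.66 to 11.2 covers 0, and the pairs of both strains were widely spread (SD 4.21 in WT and 4.23 in KO). Thbs4 had a difference of 3.96 on its brightest probe (leave-out range 2.54 to 5.81) and 1.29 on the other, and Thbs2 one of 1.53 (0.87 to 2.08). Of 22 proteases and inhibitors, 14 had a higher ratio, with a median of 0.19 and values from −1.40 to 3.30. The gene at 3.30 was not well above background on all 12 arrays. The membrane protease Mmp15 had a difference of −1.40 (leave-out range −2.0 to −0.40) and the aggrecanase Adamts5 one of 0.83 (0.15 to 1.64). Basement membrane genes had a median of −0.00 over 21 genes, with 10 above and 11 below 0 and values from −2.49 to 1.48. The gene at −2.49 was not well above background on all 12 arrays. The highest value was that of the collagen chain Col4a5, which was above 0 in each trial and had a leave-out range of 0.76 to 2.25.

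Genes of endothelial identity lay below 0 almost together. Of 26, 25 had a lower ratio in KO, with a median of −0.44 and a narrow range from −0.82 to 0.03. The median was −0.62 in trial 1, 0.29 in trial 2 and −0.74 in trial 3, and it was −0.06 without the KO pair of trial 1 and 0.13 without the WT pair of trial 3. The ratios overlapped between the strains for every gene of the class. Erg, a transcription factor that maintains endothelial fate, had ratios of −1.19, −2.14 and 0.16 in WT and −1.72, −2.99 and −0.94 in KO, below 0 in each trial. Tie1, an angiopoietin co-receptor, had a difference of −0.70 (leave-out range −1.43 to 0.25), Mmrn2 of −0.62 (−0.93 to −0.27) and the nitric oxide synthase Nos3 of −0.46 (−0.94 to 0.18). Their summed signal was 523 to 903 in WT chow, 755 to 1055 in KO chow, 394 to 712 in WT HFD and 407 to 668 in KO HFD, with the highest value on the KO chow array of trial 1. Of the markers that define the sort, the leukocyte gene Ptprc (CD45) was low but well above background on 1 of 3 WT chow arrays and on all 9 others. No size is therefore given for its response.
Of 26 genes of the Notch pathway and arterial identity, 17 had a lower ratio in KO, with a median of −0.27, which was 0.16 without trial 1. The ratios of 1 gene, the arterial kinase Bmx, did not overlap, at 0.39, −1.12 and −1.07 in WT and −1.79, −1.52 and −1.44 in KO. The Notch targets Hes1 and Heyl had differences of 1.26 (leave-out range 0.19 to 2.52) and −0.94 (−1.47 to −0.21). Genes of vessel tone gave medians of 0.24 over 16 prostanoid genes and 0.12 over 18 genes of endothelin, angiotensin and nitric oxide. The prostanoid median was 1.00, −0.06 and −0.05 in trials 1, 2 and 3, and −0.07 without trial 1. The prostacyclin receptor Ptgir had a difference of 1.24 on its brightest probe (leave-out range 0.48 to 1.82) and −0.22 on its other probe. Ptgfr, the receptor of prostaglandin F, had one of 1.02 (0.49 to 1.71), above 0 in each trial. The endothelin receptor Ednrb had a difference of −1.06 (−1.89 to −0.54). Coagulation genes had a median of 0.01, with 12 above and 9 below 0 of 21. F13a1, the chain of the clot cross-linking factor, had ratios of −3.27, −1.49 and −2.18 in WT and −1.0, −1.52 and −0.38 in KO, a difference of 1.34. The strains overlapped there by the KO value of trial 2. Thbs1 had a difference of 1.50 (leave-out range 0.85 to 2.27).

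The metabolic classes had medians of 0.06 over 24 genes of insulin and IGF signalling, −0.04 over 28 genes of glucose entry and glycolysis and −0.08 over 25 genes of cholesterol synthesis. These lay within 0.1 of the median of all genes. Slc2a4, the insulin-regulated glucose transporter, had a difference of −1.13 that was −0.01 without trial 1. In the cholesterol class Insig1, which holds back the sterol sensor and is itself a sterol-regulated gene, had ratios of −0.38, −0.49 and −1.78 in WT and −1.73, −1.43 and −2.51 in KO. Its difference of −1.01 was negative in all 3 trials, as were those of the synthesis enzymes Cyp51 and Msmo1 at −0.62 each (leave-out ranges −0.91 to −0.28 and −0.84 to −0.39). The strains overlapped for Insig1 by the WT ratio of trial 3.
Fatty acid uptake and oxidation had a median of −0.22 over 30 genes, with −0.68, 0.44 and −0.35 in the trials. Acot2, a thioesterase that frees fatty acids from coenzyme A in mitochondria, went the other way. It had ratios of −0.46, −0.90 and −0.81 in WT and 0.90, 1.62 and −0.09 in KO, which did not overlap, and a difference of 1.53 (limma p = 0.0213 before and 1 after adjustment, exact permutation p = 0.1). Its cytosolic relative Acot1 had a difference of 1.48, above 1 in each trial (leave-out range 0.91 to 1.95). The sequences of Acot1 and Acot2 are closely related, and cross-hybridisation between their probes was not tested. Of 39 genes of the respiratory chain and ATP synthase, 36 had a lower ratio in KO. The values were small, from −0.73 to 0.09, with a median of −0.23 and −0.02 without trial 1. Cytochrome c, Cycs, had a difference of −0.73 (leave-out range −1.26 to −0.32) and Cox5a one of −0.44 (−0.79 to −0.14), both with the opposite sign in trial 2.
Adipocyte markers moved with these classes. Of 18 tested, 16 had a lower ratio in KO, with a median of −0.39 and trial medians of −1.12, 0.49 and −0.25. Their summed signal was 710 on the KO chow array of trial 1 and 251 to 291 on the other 5 chow arrays, and it was 113 to 186 on the 6 HFD arrays. Adipoq, adiponectin, had the only large value in the other direction, 1.36 (leave-out range 0.43 to 2.74). Without the KO pair of trial 1 the median of the adipocyte markers was 0.17, that of fatty acid genes 0.02 and that of respiratory chain genes −0.03. The part of adipocyte RNA in these medians was not tested.

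**Figure D5:**
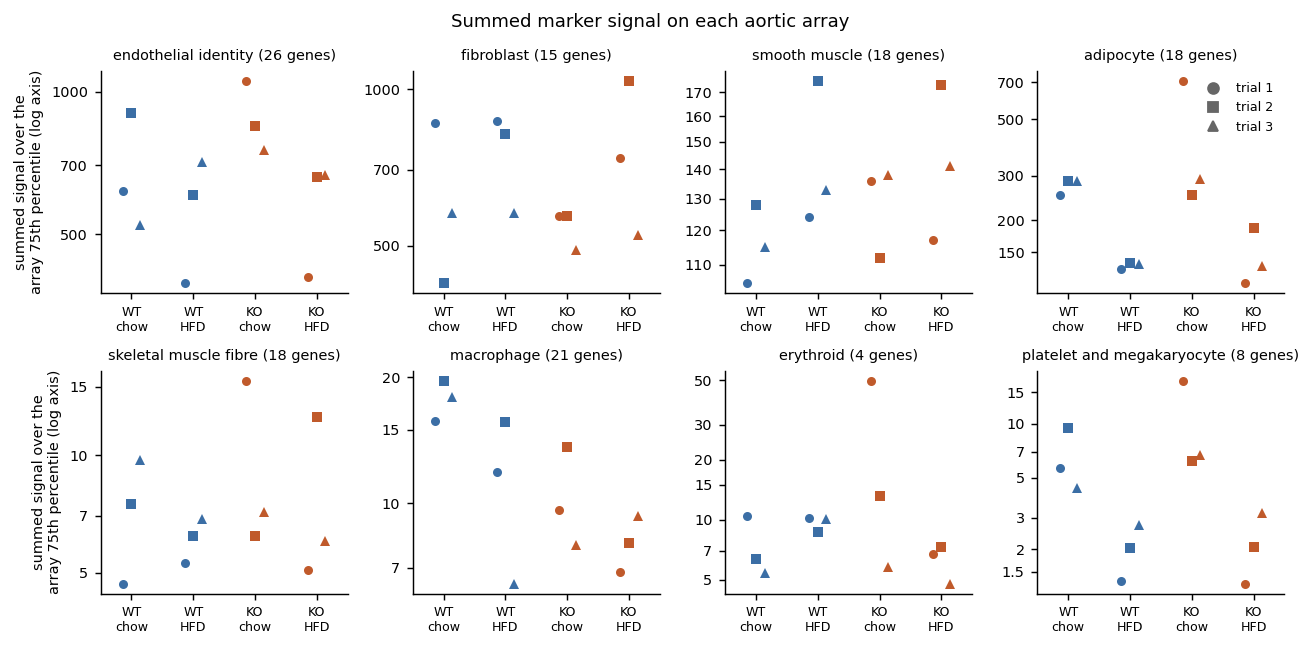
Summed signal of the tested markers of 8 cell types on each aortic array, in units of the array's 75th percentile (logarithmic axes, a separate scale in each panel; blue WT, orange KO; symbols are trials 1, 2 and 3). The KO chow array of trial 1 is highest in 5 panels, with 710 for adipocyte markers and 49.6 for erythroid markers.

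Inflammatory and stress classes had no common direction. Interferon-stimulated genes had a median of −0.28 over 24, with −0.39, 0.35 and −0.63 in the trials, and the antiviral gene Rsad2 had a difference of −0.97 (leave-out range −1.62 to −0.13). Leukocyte adhesion and chemokine genes had a median of 0.21 over 27, which was −0.26 without trial 1, and Cxcl9, a T cell chemokine, had a difference of −1.01 (−1.91 to −0.31). Immediate early genes, which rise within minutes of cell stress and during tissue digestion, had a median of −0.01, and Ier3 a difference of 1.09 (leave-out range 0.49 to 1.65). Heat shock and unfolded protein genes had a median of 0.00, and Hyou1, a chaperone of the endoplasmic reticulum, one of 0.55 with 0.50, 0.67 and 0.48 in the trials.
Of 8 galectin genes tested, 4 lay above and 4 below 0. Lgals12, a galectin of fat cells, had ratios of −0.92, −0.51 and −1.58 in WT and −3.94, −2.07 and −1.88 in KO, with a difference of −1.63 (limma p = 0.0419 before and 1 after adjustment, exact permutation p = 0.1), and it was well above background on 2 of 3 KO HFD arrays. The response difference of Lgals3 was −0.18, with −1.87, 0.61 and 0.71 in the trials.
Scavenger receptors had a median of 0.23 over 19 genes. Marco, a macrophage scavenger receptor, had ratios of 0.38, 1.08 and 1.77 in WT and 3.36, 1.49 and 7.57 in KO, which overlapped. Genes of vascular calcification had a median of −0.02 over 19. Tnfrsf11b, osteoprotegerin, a decoy receptor that restrains bone resorption, had ratios of 2.49, 0.77 and 0.71 in WT and 2.48, 3.86 and 5.78 in KO. The strains differed by −0.02 in trial 1, 3.09 in trial 2 and 5.06 in trial 3, and the response difference was 2.71 (95% interval 0.50 to 4.93). Its receptor relative Tnfrsf11a had a difference of −1.41 on its brightest probe (leave-out range −2.06 to −0.89) and −0.06 on the other. The pyrophosphate-making enzyme Enpp1 had one of 1.07, with −1.91 in trial 2 and a leave-out range of 0.05 to 2.56. Guidance genes had a median of 0.05 over 34, and the guidance ligand Slit2 had a difference of 0.95 on its brighter probe (leave-out range 0.38 to 1.65) and −0.04 on the other. Sema3d, a semaphorin, had one of 1.16, from a fit that lacked the KO ratio of trial 3 because a spot was left out. The medians were −0.02 for the VEGF, angiopoietin and PDGF axes and 0.10 for TGF-beta and BMP signalling.

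In classes where few genes had ratios that did not overlap, these genes are named here, although they were chosen after their values were seen. They were Igfbp3, Foxo3 and Ptpn1 of insulin signalling, Hadha of fatty acid oxidation, Vegfa, Ifi35 of the interferon class, Smad5, Grem1 of the calcification class and Alb among liver markers. Vegfa, the main endothelial growth factor, had ratios of −0.73, −0.75 and −0.75 in WT and −0.53, 0.26 and −0.33 in KO. Ptpn1, a phosphatase that dampens the insulin receptor, had a difference of −0.37 and Igfbp3 one of 0.42. Foxo3 was not well above background on any WT chow array, nor Grem1 on any KO chow array, so no size is given for them here. The 4 probes of Vegfa gave differences from 0.55 to 1.94.
Of 30 transcripts that the study names for the aorta, all of which had a tested probe, 22 had a higher and 8 a lower ratio in KO. The study chose them on these arrays, so this split is not independent evidence of a direction. The difference had 1 sign in all 3 trials for 7 of them, and 22 kept their sign without trial 1. For 1 of them, G6pc, the glucose-releasing phosphatase, the ratios did not overlap, at −1.39, −1.33 and −1.64 in WT and −1.07, 0.53 and −1.07 in KO. The study lists its PCR assay of G6pc under another reference transcript than that of the probe read here. Only Tnfrsf11b had a limma p under 0.05 before adjustment. Among the others, Coch had a difference of −0.97 (leave-out range −1.25 to −0.51) and Prkca, protein kinase C alpha, one of 1.63 (1.1 to 2.57), each with the same sign in all 3 trials.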

How the data were processed

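RNA of sorted aortic endothelium was read on 12 single-colour Agilent mouse arrays (muscle arrays served only for the strain check). The authors deposited Feature Extraction output (10.5.1.1 per the file headers, 9.1 per the processing notes), in which the processed intensity of each spot is background-subtracted and detrended but not scaled between arrays. They also deposited a log2 table, equal to the log2 of these intensities plus 1 constant per array. The sources used here do not name a normalization for the paper's fold changes.

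Here the log2 of the processed intensity over the array's 75th percentile of non-control spots was taken, without spots marked as outliers, and averaged over the spots of each probe. Probes were named by accession through a gene table (27198 of 41174 probes matched). The 25865 probes that were well above background on all 3 arrays of some aortic group were tested in limma 3.58.1 (R 4.3.3), with 6 blocks of strain and trial and a diet term per strain, 2-sided, with Benjamini-Hochberg adjustment over all tested probes at 0.05. The fit was tested on simulated data. A gene was read on its brightest tested probe. Tables and plots used Python 3.11.15, pandas 2.3.3 and matplotlib 3.10.9. Arrays have no read depth, so precision depends on how many there were. With 3 values against 3, an exact permutation test cannot give a p under 0.1, its value wherever the strains did not overlap. By the labels a trial, not a pool, is a separate experiment. The limma p of the main fit measures the spread of the pair ratios between trials within a strain, with the strains of a trial left unpaired.

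Labels call a trial an independent experiment, and each slide held the 4 aortic arrays of 1 trial (trial 1 in a first scan session, trials 2 and 3 in a second), so trial numbers pair arrays. Deviations from the group means of same-trial arrays correlated at −0.057 to 0.621 (median 0.213, 18 pairs), and those of different trials at −0.423 to 0.285 (median −0.106, 36 pairs).

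The members, the 28 classes and the 14 marker lists were chosen with earlier results of these data known. Named genes are those past the adjusted threshold (0), the 10 largest non-overlapping differences in each direction among genes well above background on all 12 arrays, up to 3 leading members of each class with further members of classes described in full, genes the study names for the aorta, and Lgals3. Some of these are given in counts alone, and a few are not reported here. Marker signal is the sum of linear signals over the 75th percentile. Alternatives were normexp, quantile normalization, the deposited log2 table, outlier spots kept, other filters, other pairings, the methods' t-test, the mean of probes, and each trial or pair left out.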

Additional observations from a re-analysis of the deposited data

Results flagged for a closer look

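For 10 of the named genes every WT pair lay on one side of 0 and every KO pair on the other. Alas2 (response difference −2.12), Filip1 (−3.82), Prtg (−1.90), Sdsl (−3.00), Zfp599 (−2.03) and Hadha (−0.25) were higher on HFD in every WT pair and lower in every KO pair. The ratios of Hadha lay close to 0, at 0.03, 0.03 and 0.28 in WT and −0.24, −0.03 and −0.14 in KO. The 95% interval of its response difference, −1.03 to 0.54, covers 0. For the diet effect within a strain, 0 probes passed the adjusted threshold in WT or in KO in the main fit. Opposite directions in the 2 strains are therefore not shown by a test for any of the 10 genes. Foxo3, a transcription factor held back by insulin signalling, had the same order with a fitted value of −3.52, but it was not well above background on any WT chow array and on 1 of 3 KO HFD arrays, so this value is no measured size. Bend6 (1.89), Ptpru (2.22) and Wt1 (1.66) had the opposite order. Over all genes, 58 were higher on HFD in each WT pair and lower in each KO pair, and 44 the other way. The difference itself was tested for these 10 in limma, with adjusted p values of 0.857 or more, and 8 of the 10 are among the leading genes that were picked for not overlapping.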

How the results depend on the processing

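For the response difference, 0 probes passed the adjusted threshold in limma under every alternative run, among them normexp background correction, quantile normalization, the deposited log2 table, other filters and each trial or pair left out, and in the methods' t-test (560 probes at an unadjusted p under 0.05, 277 higher and 283 lower). Of 93 named genes, 71 moved by over 1.5 times in at least 1 of the 9 settings that left out a trial or pair. No named gene turned its direction under another processing setting. When a trial or pair was left out, 6 of 93 did, namely Cry1 (range −0.93 to 0.10), Eln (−0.05 to 1.37), Lgals3 (−0.67 to 0.66), Nos3 (−0.94 to 0.18), Per1 (−1.06 to 0.08) and Tie1 (−1.43 to 0.25). The diet effect within a strain, with 0 probes past the adjusted threshold in WT and KO, had 2 and 4 with normexp, 2 and 5 over probes well above background on all aortic arrays, and 2 in WT without the KO pair of trial 1, a range of 0 to 2 over the settings that left out a trial or pair. Paired by trial, with the replicate block shared by the strains, it had 2 and 4, and with no replicate block 4 and 7. The unadjusted calls of the response difference were 335 higher and 333 lower under the shared block, 575 and 661 as within-trial differences, 224 and 254 without the block, 562 and 540 without a filter, and 147 and 187 over probes well above background on all arrays. With a trial or pair left out they ran from 265 to 784 higher and 351 to 545 lower, the most without the WT pair of trial 2. Probes past 1 in all 3 trials (222 up, 225 down) numbered 94 and 117 with normexp, 398 and 364 without a filter, and 47 and 50 over probes well above background on all arrays. Without 1 trial they numbered 581 to 1184 up and 730 to 919 down, since fewer trials had to pass. Probes with all KO ratios above the WT ratios (584) numbered 936 without a filter and 365 over probes well above background on all arrays. With a pair or trial left out, non-overlapping probes numbered 1091 to 3815 above and 1402 to 4481 below, and genes 507 to 2078 and 635 to 2529, again with fewer ratios to separate. Of 28 class medians, 10 moved by more than their SD between trials. The clock median (0.44) was 0.36 with normexp (elastic fibres 0.45), 0.22 over probes well above background on all arrays (elastic fibres 0.43) and 0.26 to 0.71 with a pair or trial left out. The antioxidant median (0.02) was 0.00 with normexp and 0.07 with quantile normalization. The galectin median (−0.05) was 0.04, 0.09, 0.02 without a filter, 0.04 over probes well above background on all arrays and −0.09 over the mean of probes. With a pair or trial left out, the medians ran from −0.10 to 0.24 for antioxidant genes, −0.35 to 0.12 for galectins, −0.78 to 0.13 for endothelial identity, −0.11 to 0.21 for basement membrane, 0.04 to 0.95 for matricellular genes, −0.23 to 0.17 for glucose entry, −0.26 to 0.64 for adhesion and chemokines, −0.04 to 0.67 for scavenger receptors, −0.06 to 0.33 for guidance and −0.12 to 0.20 for the VEGF axes. The cause of these shifts was not tested.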
